A study of Mus musculus with 11 samples.

Results

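The comparison of TGF-β2-treated with PDGF-BB-treated HL-1 cells covered 7 of the 11 cell arrays of the series, which were every array whose labels named either growth factor. HL-1 is a line of contracting cells from an adult mouse heart with features of atrial cardiomyocytes. In 4 flasks the cells had received TGF-β2 at 10 ng/mL and in 3 flasks PDGF-BB at 100 ng/mL, so the doses differed, and both groups were kept for 23 h in medium without serum or antibiotics before harvest with trypsin. The other 4 arrays came from control flasks without growth factor and entered no test here. Each sample was 1 culture flask of a single cell line, and the adjusted p-values measured the spread between these flasks. The methods gave 4 samples per cell group, whereas 3 PDGF-BB arrays were analysed here, and one more PDGF-BB cell sample was treated by the study as outlying. The question put to the arrays was which transcripts set the cells given one growth factor apart from those given the other.

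TGF-β2 is a ligand that binds receptor serine/threonine kinases and acts through SMAD transcription factors, and in the heart it is known for its part in valve formation, matrix production and fibrosis. PDGF-BB binds receptor tyrosine kinases and acts through the MAP kinase and PI3 kinase pathways, and it is best known as a mitogen of fibroblasts and smooth muscle cells. The arrays measured the steady-state transcript level at 23 h, long after the first wave of immediate-early transcription that either ligand can start.

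Illumina MouseRef-8 bead arrays measured 25697 probes, and 12240 of them, for 8317 named genes, were above background (detection p below 0.05) on at least 3 of the 7 arrays and were tested. Mean raw signals ranged from 528 to 846 on the TGF-β2 arrays and from 451 to 670 on the PDGF-BB arrays, and 11401 to 12455 against 11686 to 12186 probes were detected, so the groups overlapped in both (exact permutation tests, two-sided p = 0.629 and 0.971, smallest p possible 0.0571). TGF-β2 arrays 1 and 2 and PDGF-BB array 1 were on 1 chip, and the remaining 4 arrays were on a second chip. PDGF-BB array 1 had the lowest mean signal and, with TGF-β2 array 3, the lowest correlation between any 2 arrays (r = 0.956 over the tested transcripts), and values without it are given where a difference with an unadjusted p below 0.05 moved by over 1.5 times. Cardiomyocyte markers were detected for 24 of 26 genes on the array, with Ryr2 and Bmp10 below background on all 7 arrays. Of fibroblast, endothelial and leukocyte markers, 5 of 19, 6 of 13 and 2 of 10 were detected, and Col1a1, Cdh5 and Ptprc were not.

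No transcript passed the test between the growth factors after Benjamini-Hochberg adjustment (limma, adjusted p below 0.05, 0 of 12240 transcripts, 0%). The lowest adjusted p was 0.328 and was shared by 35 transcripts. At an unadjusted p below 0.05 there were 594 transcripts, of which 468 (3.82% of those tested) had the higher mean with TGF-β2 and 126 (1.03%) had the higher mean with PDGF-BB. The 594 amounted to 4.85% of the transcripts tested. Over all transcripts the median log2 difference, TGF-β2 minus PDGF-BB, was -0.02, and 44.8% of transcripts lay above 0.

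A log2 difference of at least 1 was measured for 56 transcripts (0.458%) in the direction of TGF-β2 and for 2 transcripts (0.0163%), Ctcfl and Rchy1, in the direction of PDGF-BB. The arrays of the groups did not overlap for 425 transcripts (3.47%) higher with TGF-β2 and for 204 (1.67%) lower with TGF-β2. PDGF-BB array 1 gave the lowest value of the 7 for 50 of the 56 transcripts, and without it 9 of the 56 still differed by 1 or more. The counts of such differences were then 10 and 8 in the directions of TGF-β2 and PDGF-BB, and 20 and 16 with all 7 arrays and array weights. The median standard error of a difference was 0.198, and the median half-width of its 95% interval was 0.438, so that a transcript of typical spread had to differ by more than this to reach even the unadjusted threshold.

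**Figure D1:**
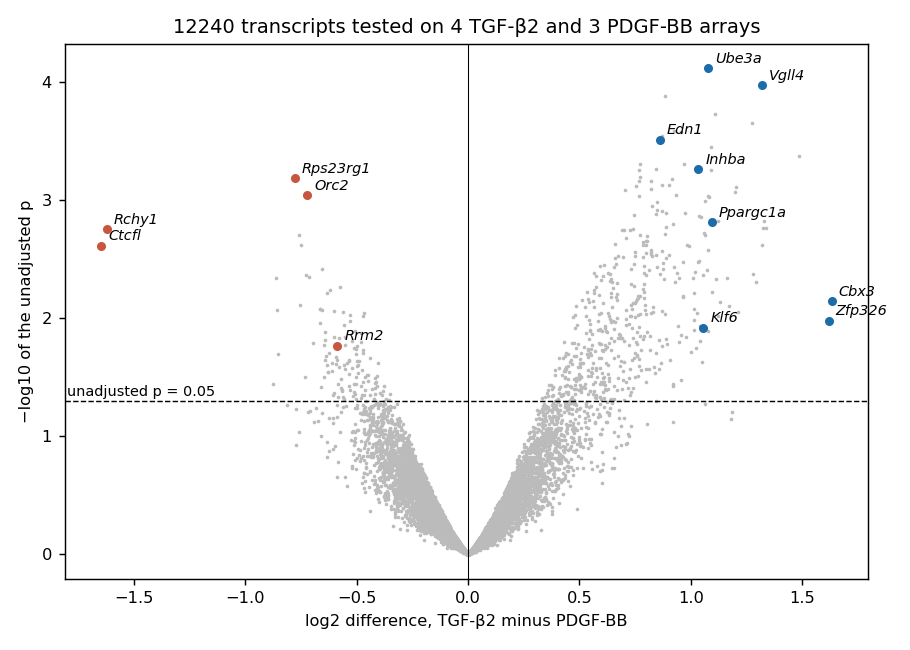
Log2 difference (TGF-β2 minus PDGF-BB, x axis) against −log10 of the unadjusted p (y axis) for 12240 transcripts, each grey point 1 transcript, with named transcripts coloured. Points above the dashed line number 468 on the right and 126 on the left, and the 2 points beyond -1 are Ctcfl and Rchy1.

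Among ligands, Inhba and Edn1 had the higher level in every TGF-β2-treated sample. Inhba encodes the activin A subunit, a secreted factor of the TGF-β family. Its normalized log2 signal was 10.48, 11.08, 10.72 and 10.25 on the TGF-β2 arrays and 9.47, 9.78 and 9.55 on the PDGF-BB arrays. The groups did not overlap, and the difference was 1.03 ± 0.21 (SE, limma, unadjusted p = 0.000543, adjusted p = 0.328), or 2.04-fold. In RNA from whole flasks, fewer cells with a transcript and less of it per cell cannot be told apart. Control arrays ranged from 9.46 to 10.69 when all 11 arrays were normalized together, and overlapped both treated groups.

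Edn1, named here after its values had been seen, encodes endothelin-1, a vasoconstrictor peptide that also drives hypertrophic growth of cardiomyocytes. Its log2 signal was 6.06, 6.14, 6.41 and 6.05 with TGF-β2 and 5.20, 5.44 and 5.27 with PDGF-BB. The probe was above background on all 4 TGF-β2 arrays and on none of the 3 PDGF-BB arrays, so the level with PDGF-BB was only bounded. It thus passed the filter on low values only through the group where it was higher. The TGF-β2 mean was at least 1.36-fold higher than the lowest signals detected on the PDGF-BB arrays, with a log2 difference of the measured values of 0.86 ± 0.16 (SE, adjusted p = 0.328). Control arrays ranged from 5.58 to 6.57.

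The receptors of both ligands were low or similar in the groups. Pdgfra and Pdgfrb, the PDGF receptors, and both probes of Tgfbr2, the type II TGF-β receptor, were below background on all 7 arrays. Of the 4 probes of Tgfbr1, the type I receptor, 2 were tested and differed by -0.04 ± 0.15 and 0.14 ± 0.26 (SE). The tested probe of Tgfbr3, betaglycan, which presents TGF-β2 to the signalling receptors, differed by 0.10 ± 0.17. None of these values exceeded its error.

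The promoters of 4 genes with non-overlapping groups are shown because SMAD, AP-1, SP1 and Myc are factors by which these ligands are known to act on transcription or which the study considered. The sequences run from 250 bases before to 50 bases after the RefSeq start (GRCm38.p6), with matches to CAGAC (SMAD), TGANTCA (AP-1), GGGCGG (SP1) and CACGTG (the E-box of Myc) on either strand in capitals. They lie at chr13:16011601-16011900 on the + strand (Inhba), chr13:42301226-42301525 on the + strand (Edn1), chr5:51567676-51567975 on the - strand (Ppargc1a) and chr4:105157097-105157396 on the + strand (Plpp3).
Inhba: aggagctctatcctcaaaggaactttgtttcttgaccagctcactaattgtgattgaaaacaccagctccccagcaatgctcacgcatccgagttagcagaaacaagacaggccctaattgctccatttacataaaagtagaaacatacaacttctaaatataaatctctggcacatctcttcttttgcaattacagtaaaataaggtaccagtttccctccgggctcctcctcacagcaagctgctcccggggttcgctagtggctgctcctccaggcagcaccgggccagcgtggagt
Edn1: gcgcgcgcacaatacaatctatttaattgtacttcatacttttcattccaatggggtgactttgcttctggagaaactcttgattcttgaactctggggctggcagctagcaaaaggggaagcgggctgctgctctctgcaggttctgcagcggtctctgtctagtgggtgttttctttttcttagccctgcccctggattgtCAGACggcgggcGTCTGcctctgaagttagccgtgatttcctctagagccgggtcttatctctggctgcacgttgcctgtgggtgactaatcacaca
Ppargc1a: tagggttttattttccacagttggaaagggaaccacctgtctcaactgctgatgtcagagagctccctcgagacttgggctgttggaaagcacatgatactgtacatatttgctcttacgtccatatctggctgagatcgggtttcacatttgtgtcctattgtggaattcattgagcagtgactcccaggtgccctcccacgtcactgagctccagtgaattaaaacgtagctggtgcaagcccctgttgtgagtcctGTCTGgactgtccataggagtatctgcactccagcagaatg
Plpp3: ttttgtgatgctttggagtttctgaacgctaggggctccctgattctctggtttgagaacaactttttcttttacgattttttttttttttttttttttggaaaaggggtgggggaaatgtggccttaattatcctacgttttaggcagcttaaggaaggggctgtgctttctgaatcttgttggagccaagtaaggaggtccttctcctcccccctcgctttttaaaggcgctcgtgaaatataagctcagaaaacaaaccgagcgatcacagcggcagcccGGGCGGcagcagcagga
The Edn1 window held 2 matches to the SMAD letters, on opposite strands at -47 and -35 from the start. Ppargc1a held 1 SMAD match and Plpp3 held 1 SP1 match, and the Inhba window held none of the 4. Among 32851 promoter windows of this length, 49.6% held the SMAD letters, 35.7% the SP1 letters, 7.81% the AP-1 letters and 7.15% the E-box. A match describes the letters of the window only.

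Ppargc1a and Ppargc1b, coactivators of the PGC-1 family that raise mitochondrial and fatty acid oxidation genes, had non-overlapping groups. Ppargc1a gave 9.74, 9.90, 9.98 and 9.52 with TGF-β2 against 8.01, 9.0 and 9.06 with PDGF-BB, a difference of 1.09 ± 0.26 (SE, unadjusted p = 0.00153, adjusted p = 0.379), which was 0.75 without PDGF-BB array 1. Ppargc1b gave 6.94, 7.47, 7.33 and 7.06 against 6.59, 6.43 and 6.37, a difference of 0.74 ± 0.18 (adjusted p = 0.379), and 0.82 without that array. For Ppargc1b, PDGF-BB array 1 was thus the nearest to the TGF-β2 arrays and not the farthest.

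The genes that encode the respiratory chain differed little. Of 33 complex I subunits tested, 23 lay above 0 and 10 below, with a median of 0.08 against -0.02 over all transcripts. The median was 0.05 on chip 2. Ndufa5, a peripheral arm subunit, was the member with an unadjusted p below 0.05, at 0.43 ± 0.19 (SE, adjusted p = 0.974). The medians of complexes II to IV (26 genes) and of ATP synthase (17 genes) were both 0.03. Cox6b2, the testis-type subunit of cytochrome c oxidase, was 0.79 ± 0.24 higher with TGF-β2 (adjusted p = 0.533), with a signal near the detection limit. Of 29 fatty acid uptake and oxidation genes tested, 11 lay above 0 and 18 below (median -0.04). The 2 PGC-1 coactivators, which were on this list, were its members with an unadjusted p below 0.05 (6.9%, against 4.85% over all transcripts).

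**Figure D2:**
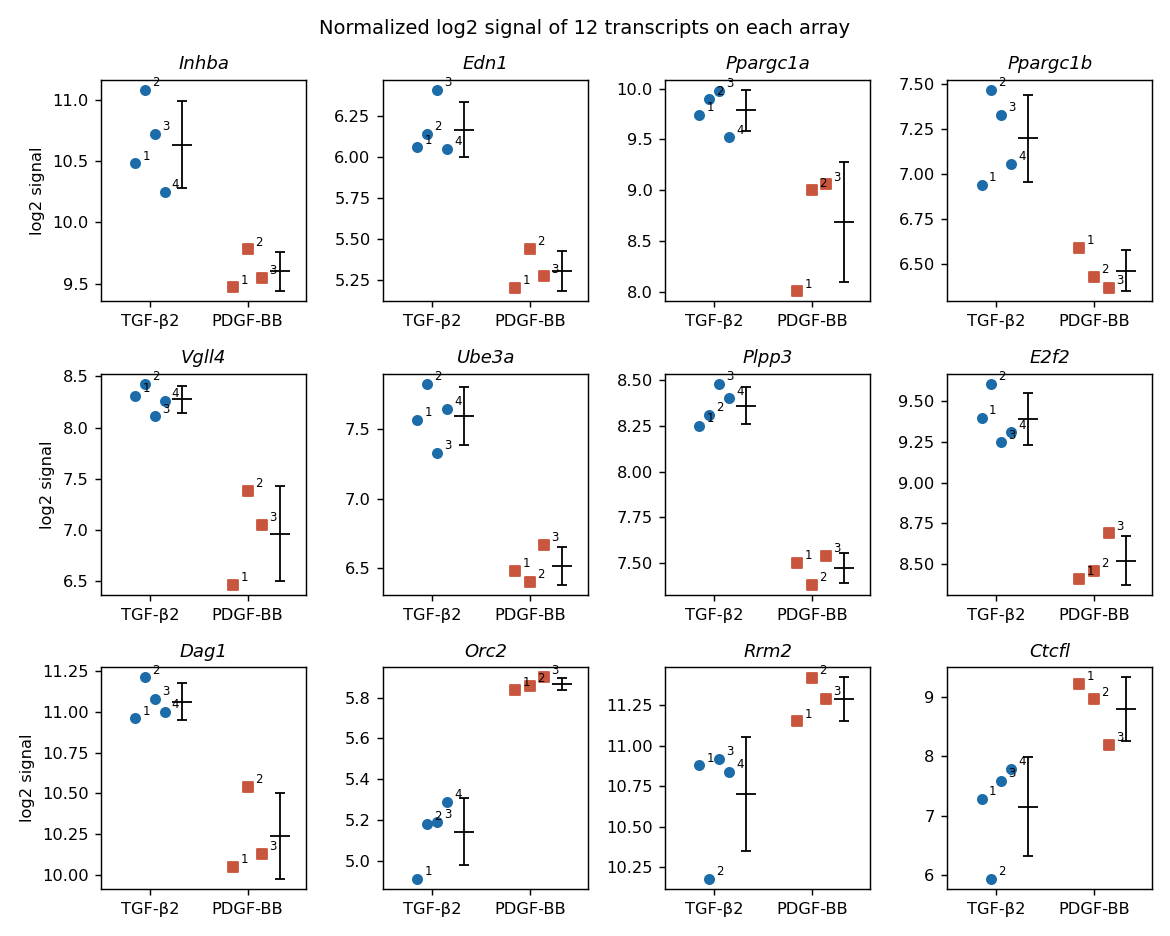
Normalized log2 signal (y axis) of 12 transcripts in the 4 TGF-β2 (circles) and 3 PDGF-BB (squares) samples, numbered by replicate, with the mean and SD beside each group. Groups do not overlap in any panel, Edn1 with PDGF-BB and Orc2 with TGF-β2 are below background on every array, the first 9 transcripts are higher with TGF-β2 and Orc2, Rrm2 and Ctcfl are lower, and no panel passes the adjusted test.

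Among cell cycle genes, E2f2, a transcription factor that drives genes of the G1 to S transition, was measured by 2 probes with nearly equal differences. It was named after its values had been seen. The first probe gave 9.40, 9.61, 9.25 and 9.31 with TGF-β2 against 8.41, 8.46 and 8.69 with PDGF-BB, and the second gave 9.49, 9.78, 9.53 and 9.44 against 8.50, 8.75 and 8.82. Each differed by 0.87 ± 0.16 (SE, adjusted p = 0.328), and by 0.70 on chip 2 for both. Skp2, the substrate receptor of the ubiquitin ligase that degrades the CDK inhibitor p27, was also named after its values had been seen. Its 3 probes differed by 0.77 ± 0.16, 0.32 ± 0.15 and 0.25 ± 0.17, without overlap between the groups for any of the 3.

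Rrm2 and Chaf1b had the higher mean with PDGF-BB. Rrm2, the small subunit of ribonucleotide reductase, gave 10.88, 10.18, 10.92 and 10.84 with TGF-β2 against 11.15, 11.42 and 11.29 with PDGF-BB, a difference of -0.59 ± 0.21 (SE, unadjusted p = 0.017, adjusted p = 0.684). Its second probe differed by -0.21 ± 0.18 with overlapping groups. Chaf1b, a subunit of the chromatin assembly factor that places histones on new DNA, differed by -0.38 ± 0.16 (adjusted p = 0.954) without overlap.

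Of 44 DNA replication and licensing genes tested, 32 lay below 0 and 12 above, with a median of -0.08. The median was -0.10 without PDGF-BB array 1, -0.08 on chip 2, -0.002 on chip 1 and -0.05 with array weights. Of the 44 genes, 2 (4.5%) had an unadjusted p below 0.05, against 4.85% over all transcripts. Of 46 mitosis genes, 34 lay below 0, with a median of -0.05 that was -0.01 on chip 2, and none reached that threshold. Over all transcripts 55.2% lay below 0.

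Orc2, a subunit of the origin recognition complex, had been singled out in earlier results of these data. Probe ILMN_1220661 gave 4.91, 5.18, 5.19 and 5.29 with TGF-β2 and 5.84, 5.86 and 5.90 with PDGF-BB, with a difference of -0.72 ± 0.16 (SE, adjusted p = 0.328). It was detected on 0 of 4 TGF-β2 arrays and 3 of 3 PDGF-BB arrays, so it passed the filter on low values only through the group where it was higher. Against the lowest signals detected on the TGF-β2 arrays the PDGF-BB mean was at least 1.10-fold higher. On TGF-β2 array 2 that lowest signal was 5.88, above the PDGF-BB values of 5.84 and 5.86. The second probe, detected on all 7 arrays, gave 6.18, 6.72, 6.64 and 6.08 against 6.79, 6.53 and 6.88, and its difference of -0.33 ± 0.20 (adjusted p = 0.9997) came with overlapping groups.

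Myocd, Mef2c and Nfatc3, regulators of muscle genes, had the higher mean with TGF-β2, while Gata4, a further cardiac transcription factor, differed by -0.37 ± 0.31. Myocd encodes myocardin, a coactivator of serum response factor in cardiac and smooth muscle. Its most abundant probe gave 10.62, 10.77, 10.83 and 10.33 with TGF-β2 against 9.37, 10.26 and 9.93 with PDGF-BB, a difference of 0.78 ± 0.23 (SE, adjusted p = 0.483). A second tested probe, detected on 3 of 7 arrays, differed by 0.42 ± 0.34. Mef2c, a MADS-box factor of cardiac development and hypertrophy, was named after its values had been seen, and its 3 probes differed by 0.80 ± 0.20, 0.75 ± 0.30 and 0.95 ± 0.39 (adjusted p = 0.393, 0.867 and 0.886). The groups did not overlap for the first of the 3 probes and did for the others, which differed by 0.42 and 0.37 without PDGF-BB array 1. Nfatc3, a calcineurin-dependent factor, differed by 0.67 ± 0.25 (adjusted p = 0.746), and by 0.37 without that array.

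These 3 factors were the members with an unadjusted p below 0.05 among 31 genes of the fetal programme and hypertrophy (9.7%, against 4.85% over all transcripts). Of the 31 genes, 16 lay above 0 and 15 below (median 0.00). Of the natriuretic peptide genes of the same programme, Nppa differed by 0.13 ± 0.16 and Nppb by -0.17 ± 0.21 (SE), both named after their values had been seen. The 30 sarcomere genes were split into 15 above and 15 below 0.

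In the smooth muscle contractile list, 7 of 11 genes lay above 0 with a median of 0.18, which was 0.01 on chip 2. Mylk, the kinase of the myosin light chain, differed by 0.70 ± 0.24 and, at a second probe, by 0.58 ± 0.23 (SE, adjusted p = 0.674 and 0.867), with overlap at both. Acta2, smooth muscle α-actin, named after its values had been seen, was measured by 4 probes that differed by -0.14 to 0.15, none beyond its standard error. The linear signal summed over all probes of the smooth muscle markers was 152765 to 174705 on the TGF-β2 arrays and 149779 to 166682 on the PDGF-BB arrays. Cnn1, Lmod1, Myh11 and Actg2 were below background on all 7, and 6 of 10 markers were detected. Most of the sum came from the 4 Acta2 probes, with TGF-β2 means of 14.29 to 15.81. The brightest of them read 15.86 on TGF-β2 arrays 2 and 4 and PDGF-BB arrays 1 and 2, and quantile normalization gives equal ranks the same value. The part of these markers in the values of Myocd and Mylk, which were also on the marker list, was not tested.

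Dag1, dystroglycan, which links the cytoskeleton to laminin, was named after its values had been seen. Its first probe ranged from 10.96 to 11.21 with TGF-β2 against 10.05, 10.54 and 10.13 with PDGF-BB, and its second gave 12.49, 12.65, 13.01 and 12.70 against 11.66, 12.39 and 12.14. The differences were 0.82 ± 0.17 and 0.65 ± 0.21 (SE, adjusted p = 0.328 and 0.575), and the groups did not overlap at either probe.

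Of 25 genes for calcium handling and ion channels, 14 lay above 0 and 11 below (median 0.05), and those with an unadjusted p below 0.05 pointed both ways. Casq2, the calcium buffer of the sarcoplasmic reticulum, named after its values had been seen, differed by 0.54 ± 0.23 and Fkbp1b, a stabilizer of the ryanodine receptor, by 0.55 ± 0.22 (adjusted p = 0.974 and 0.867). Fkbp1b differed by 0.32 without PDGF-BB array 1 and by 0.13 on chip 2. Hcn2, a pacemaker channel, gave 8.33, 7.89, 7.73 and 8.34 with TGF-β2 against 8.94, 8.29 and 8.92 with PDGF-BB, a difference of -0.64 ± 0.23 (adjusted p = 0.684), with overlap on PDGF-BB array 2. Aqp4, a water channel, gave 9.99, 10.64, 10.44 and 9.90 against 8.23, 9.63 and 8.89, a difference of 1.33 ± 0.31 (adjusted p = 0.379).

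The 5 lowest unadjusted p-values in the direction of TGF-β2 belonged to probes of Ube3a, Vgll4, Plpp3, Rnf125 and Chd4. Ube3a, a ubiquitin ligase imprinted in neurons, gave 7.57, 7.83, 7.33 and 7.65 with TGF-β2 against 6.48, 6.40 and 6.67 with PDGF-BB, a difference of 1.08 ± 0.17 (SE, unadjusted p = 7.60e-05, adjusted p = 0.328). Vgll4, which competes with YAP for TEAD factors, gave 8.31, 8.43, 8.11 and 8.26 against 6.46, 7.38 and 7.05, a difference of 1.32 ± 0.22 (unadjusted p = 0.000105). The groups did not overlap in either, and on chip 2 the differences were 0.95 and 0.98. The other tested probe of Ube3a differed by 0.66 ± 0.46 with overlapping groups, and by 0.03 without PDGF-BB array 1.

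Plpp3, a lipid phosphate phosphatase that degrades lysophosphatidic acid, agreed between its 2 probes. The first gave 8.25, 8.31, 8.48 and 8.40 against 7.50, 7.38 and 7.54, and the second 12.11 ± 0.09 (SD, n = 4) against 11.41, 11.66 and 11.19. The differences were 0.88 ± 0.15 and 0.69 ± 0.17 (adjusted p = 0.328 and 0.379) and were 0.98 and 0.65 on chip 2. Klf9, a Krüppel-like factor, was named after its values had been seen and differed by 0.87 ± 0.20 (adjusted p = 0.366) and by 0.83 on chip 2.

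Several genes with a wide difference did not repeat it at their other probes. Chd4, the ATPase of the NuRD complex, differed by 1.27 ± 0.23 (SE, adjusted p = 0.328) at 1 probe and by 0.19 ± 0.23 and 0.02 ± 0.21 at the others. Clspn, claspin of the replication checkpoint, differed by 1.34 ± 0.32 at 1 probe (0.89 without PDGF-BB array 1) and by -0.04 to 0.06 at 3 others. Golga2, a Golgi matrix protein, differed by 1.32 ± 0.32 at a probe that was below background on all 3 PDGF-BB arrays (at least 1.79-fold), and by 0.01 to 0.16 at 3 others. The first of these Golga2 probes passed the filter on low values only through the TGF-β2 arrays. Zfp292 and Rnf125, a zinc finger protein and a ubiquitin ligase, did repeat a wide difference. Zfp292 differed by 1.32 ± 0.33 and 1.03 ± 0.27, and Rnf125 by 1.11 ± 0.20 and 1.10 ± 0.32. The first Zfp292 probe and both tested Rnf125 probes were below background on PDGF-BB array 1. Without that array the first Zfp292 probe differed by 0.88 and the Rnf125 probes by 0.99 and 0.79. A further Rnf125 probe, detected on 1 array, was not tested.

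Cbx3 and Zfp326 had the widest measured differences in the direction of TGF-β2, at probes that were below background on PDGF-BB array 1. Cbx3, a heterochromatin protein, gave 7.19, 8.14, 8.17 and 7.33 with TGF-β2 against 4.69, 7.11 and 6.42 with PDGF-BB. Zfp326, a splicing-associated zinc finger protein, gave 8.15, 7.63, 8.18 and 8.14 against 4.74, 7.36 and 7.12. The lowest signal detected on PDGF-BB array 1 was 5.79, so both values of that array were below the limit of detection. The differences of 1.63 ± 0.49 and 1.62 ± 0.52 (SE, adjusted p = 0.520 and 0.574) were 0.95 and 0.78 without it. Cnot4 (1.29 ± 0.36), Ankrd12 (1.21 ± 0.38), Klf6 (1.05 ± 0.35) and Zeb2 (1.01 ± 0.28) were 0.83, 0.68, 0.54 and 0.66 without that array. The Ankrd12 probe was also below background on that array, at 4.94. Its other tested probe, detected on all 7 arrays, differed by 0.03 ± 0.21 with overlapping groups. The other tested probes of Cnot4 and Klf6 lay above 0. The other tested probe of Zeb2, detected on 3 of 7 arrays, differed by -0.43 ± 0.28.

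Over the 2274 genes with at least 2 tested probes, 65.0% of other probes lay on the same side of 0 as the probe of lowest p. The share was 76.4% where the best probe had an unadjusted p below 0.05 in the direction of TGF-β2 (214 of 280 other probes) and 72.6% in the direction of PDGF-BB (53 of 73). Cir1, a corepressor of the Notch pathway, had 2 probes that pointed apart, one at -0.73 ± 0.20 and the other at 0.88 ± 0.28, both without overlap between the groups.

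Ctcfl and Rchy1 were the 2 transcripts at least 1 higher with PDGF-BB on the log2 scale. Ctcfl, a germline paralogue of CTCF, gave 7.28, 5.93, 7.59 and 7.79 with TGF-β2 against 9.23, 8.96 and 8.19 with PDGF-BB, a difference of -1.65 ± 0.41 (SE, adjusted p = 0.393). Rchy1, a ubiquitin ligase of p53, gave 6.69, 5.58, 6.83 and 7.45 against 8.73, 8.33 and 7.72, a difference of -1.62 ± 0.39 (adjusted p = 0.379). The 7 arrays stood in the same order at both probes, with PDGF-BB array 1 highest and TGF-β2 array 2 lowest. The lowest signal detected on TGF-β2 array 2 was 5.88, so the Rchy1 value of 5.58 was below the limit of detection. The Ctcfl value of 5.93 lay just above that limit. Chip 2 gave a difference of -0.89 for each, so neither reached 1 there, while chip 1 gave -2.62 for Ctcfl and -2.60 for Rchy1. Both differences stayed beyond -1 when PDGF-BB array 1 was left out, at -1.44 and -1.40. The other tested probe of Rchy1 gave 9.92, 9.75, 10.07 and 9.96 against 9.45, 9.96 and 9.99, a difference of 0.13 ± 0.18. Control arrays ranged from 7.22 to 7.85 for Ctcfl and from 6.27 to 7.44 for the first Rchy1 probe.

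Rps23rg1, BC049762, Defb15 and Tmem209 had the higher mean with PDGF-BB near the detection limit. Rps23rg1 and BC049762 were detected on 3 of 3 PDGF-BB and 0 of 4 TGF-β2 arrays. They passed the filter on low values only through the group where they were higher. Their PDGF-BB means were at least 1.37-fold and 1.19-fold above the lowest signals detected on the TGF-β2 arrays (limma on the measured values, adjusted p = 0.328 and 0.381). BC049762 was 5.67 on PDGF-BB array 2, below the mean of these limits, 5.73. Without PDGF-BB array 1, neither they nor the first Orc2 probe passed the filter on low values. Defb15, a β-defensin, and Tmem209, a nuclear envelope protein, were detected on 3 of 3 PDGF-BB and 1 of 4 TGF-β2 arrays and differed by -0.86 ± 0.24 and -0.75 ± 0.23 (SE). The other tested probes of Tmem209, detected on all 7 arrays, differed by -0.32 ± 0.23 and -0.18 ± 0.22 with overlapping groups. Gipc1, a PDZ adaptor of receptor trafficking that binds betaglycan, differed by -0.86 ± 0.26 at 1 probe and by -0.13 to -0.09 at 3 others. Tapbp, tapasin of the antigen-loading complex, differed by -0.75 ± 0.19 (adjusted p = 0.393) at 1 probe and by -0.12 ± 0.25 at the other.

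The list with the widest median joined the tRNA synthetases with genes of the amino acid response, which acts through ATF4 when amino acids run short. Of 37 tested, 32 lay below 0 and 5 above, and the median was -0.25, against -0.02 over all transcripts. Fgf21, a stress-induced hormone named after its values had been seen, gave 7.58, 7.12, 8.45 and 7.52 with TGF-β2 against 8.91, 8.03 and 8.63 with PDGF-BB, a difference of -0.85 ± 0.31 (SE, adjusted p = 0.731). Asns, asparagine synthetase, also named after its values had been seen, differed by -0.37 to -0.34 at 3 probes, none with an unadjusted p below 0.05, and Atf5 by -0.43 ± 0.21. Atf4 and Psat1, named after their values had been seen, differed by -0.10 ± 0.25 and 0.02 ± 0.20.

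At an unadjusted p below 0.05, 3 members of this list were higher with TGF-β2 and 1 was lower. They made up 10.8% of the list, against 4.85% over all transcripts. Over all transcripts 468 were higher and 126 lower at that threshold, so most lay on the TGF-β2 side there too. Farsa, a subunit of phenylalanyl-tRNA synthetase, was detected on 4 of 4 TGF-β2 and 0 of 3 PDGF-BB arrays. It passed the filter on low values only through the group where it was higher. Its TGF-β2 mean was at least 1.38-fold above the lowest signals detected on the PDGF-BB arrays (limma on the measured values, adjusted p = 0.328). Eprs, glutamyl-prolyl-tRNA synthetase, differed by 0.76 ± 0.24 and 1.01 ± 0.34 (SE) at 2 probes without overlap, the second by 0.59 without PDGF-BB array 1. Vldlr, a lipoprotein receptor named after its values had been seen, differed by 0.41 ± 0.18 (adjusted p = 0.966).

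The shift of this list followed single arrays of both groups. Its median level relative to the mean of the 7 arrays was -0.11, -0.36, 0.18 and -0.21 with TGF-β2 and 0.32, -0.18 and 0.25 with PDGF-BB. TGF-β2 array 3 thus stood with PDGF-BB arrays 1 and 3, and PDGF-BB array 2 stood with the other TGF-β2 arrays, so the groups overlapped. The median difference was -0.19 without PDGF-BB array 1 and -0.06 on chip 2.

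Glycolysis and hypoxia genes (27 of 35 below 0, median -0.16) and ER chaperones (23 of 32 below 0, median -0.13) followed the same arrays. Slc2a1, the GLUT1 glucose transporter, differed by -0.41 ± 0.18 and Hif1a by -0.37 ± 0.18 (SE, adjusted p = 0.9997 for both). Hspa5, the ER chaperone BiP, gave 9.24, 9.38, 10.84 and 9.64 with TGF-β2 against 9.38, 9.90 and 10.69 with PDGF-BB, a difference of -0.22 ± 0.40. Its highest arrays were 1 of each group.

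**Figure D3:**
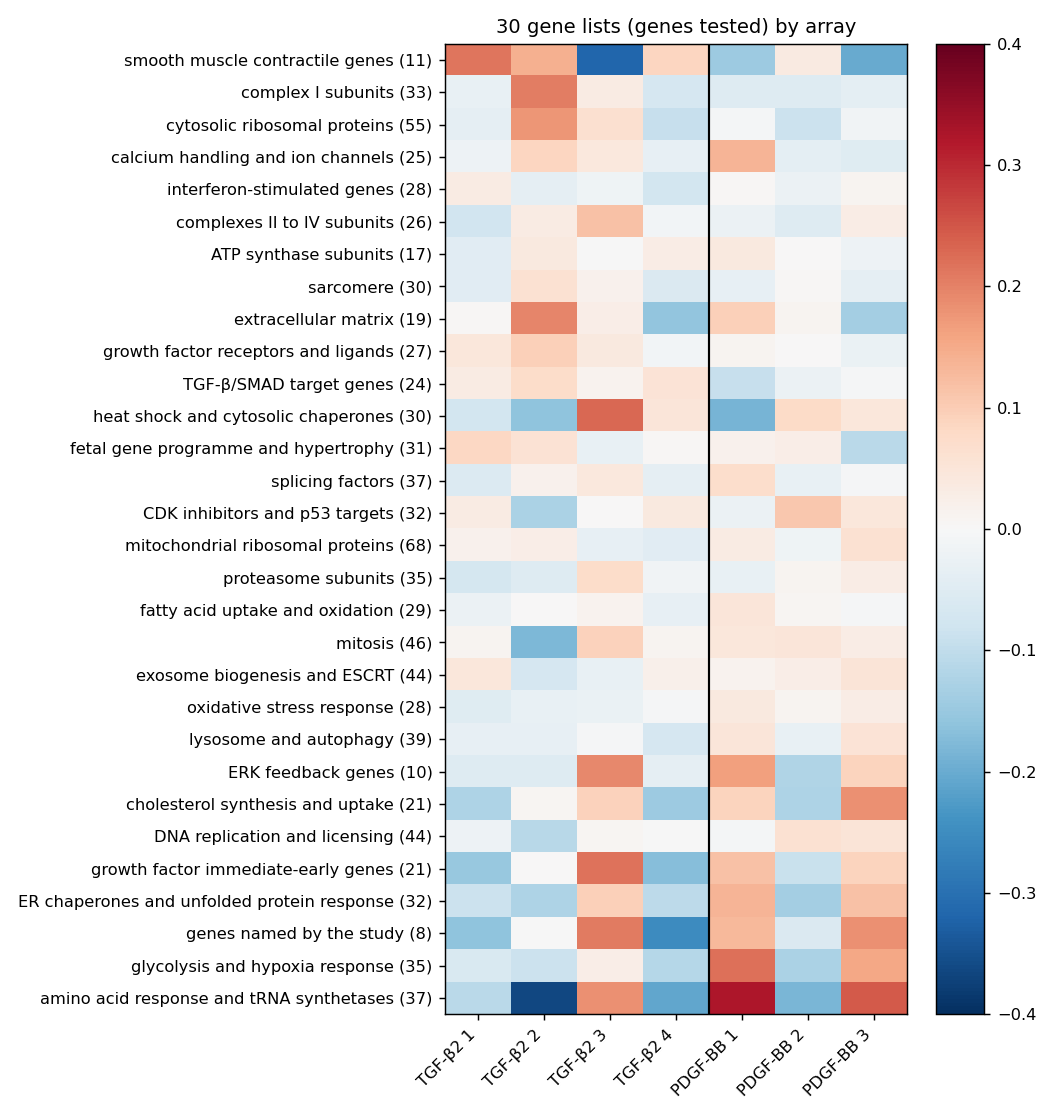
Median log2 deviation of the tested genes of 30 lists (rows, number of genes in brackets) from each gene's mean over the 7 arrays (columns), red above and blue below that mean. The amino acid response, ER chaperone, glycolysis and hypoxia, immediate-early and ERK feedback lists are red on TGF-β2 array 3, PDGF-BB array 1 and PDGF-BB array 3, on both sides of the line between the groups.

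Genes known to respond to each ligand were compared next. Of 24 TGF-β/SMAD target genes tested, 12 lay above 0 and 12 below, with a median of 0.01. At an unadjusted p below 0.05 there was 1 gene (4.2%, against 4.85% over all transcripts). That gene was Zeb2, a repressor of E-cadherin, with 8.76, 8.33, 8.59 and 8.96 against 6.95, 8.21 and 7.78, a difference of 1.01 ± 0.28 (SE, adjusted p = 0.437). The difference was 0.66 without PDGF-BB array 1, and the other tested probe of Zeb2 lay below 0, as given above. Ccn2, a matricellular factor widely used as a marker of TGF-β action and named after its values had been seen, gave 11.35, 10.99, 11.60 and 11.64 against 11.18, 11.63 and 11.48, a difference of -0.04 ± 0.20 (95% interval -0.49 to 0.42). Id2, an inhibitor of helix-loop-helix factors, differed by 0.62 ± 0.28 (adjusted p = 0.9997) with overlap, by 0.32 without PDGF-BB array 1, and by 0.19 ± 0.48 at its second probe.

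Of 21 growth factor immediate-early genes, 14 lay below 0 and 7 above (median -0.08), and of 10 ERK feedback genes 6 lay below and 4 above (median -0.06). Both medians turned to the other side of 0 without PDGF-BB array 1, at 0.06 and 0.09. Dusp7, a phosphatase of ERK, gave 8.68, 8.82, 9.06 and 8.78 with TGF-β2 against 7.73, 8.39 and 8.14 with PDGF-BB, a difference of 0.75 ± 0.19 (SE, adjusted p = 0.410). Dusp1, a phosphatase of stress-activated kinases, differed by -0.30 ± 0.18. Among 19 extracellular matrix genes (10 above and 9 below 0), Mmp14, a membrane-bound collagenase, gave 10.28, 10.36, 10.11 and 10.40 against 9.59, 9.85 and 9.65, a difference of 0.59 ± 0.16 (adjusted p = 0.434), without overlap.

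Genes that the study named, as transcripts of interest or as regulators in its network analysis, included none with an unadjusted p below 0.05. Of 13 such genes 12 were on the array and 8 were tested, of which 7 lay below 0 and 1 above (median -0.14). The study named Nfat5 and Hdac5 for their detection in exosomes and built its network from exosome transcripts. Neither was a comparison of levels in the cells. Pou5f1 and Esr1 were below background on all 7 arrays, and Myc and Sp1 were detected on at most 2. The 2 tested probes of Nfat5 differed by 0.19 ± 0.23 and 0.02 ± 0.19, and the 3 of Hdac5, a class II histone deacetylase, by -0.40 ± 0.21, -0.27 ± 0.15 and -0.13 ± 0.16 (SE). Fos, Jun and Gata4 differed by -0.35 ± 0.26, -0.15 ± 0.21 and -0.37 ± 0.31. Cd63 and Tsg101, which serve as protein markers of exosomes, differed by -0.19 to 0.10 over 3 probes and by -0.04 ± 0.19. Of 44 genes of exosome biogenesis and ESCRT, 29 lay below 0 and 15 above (median -0.05), and none had an unadjusted p below 0.05.

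The remaining lists held few differences. Of 55 cytosolic ribosomal protein genes 37 lay above 0 (median 0.07), and 1 (1.8%, against 4.85% over all transcripts) had an unadjusted p below 0.05. It was Rpl23 at its most abundant probe (0.54 ± 0.16 SE, adjusted p = 0.508), while its 3 other probes differed by -0.47 to 0.14. Of 21 genes of cholesterol synthesis and uptake 15 lay below 0, and Stard4, a sterol carrier, differed by 0.79 ± 0.27 (adjusted p = 0.650). Of 28 interferon-stimulated genes 16 lay above 0, while Cxcl10, a chemokine, differed by -0.57 ± 0.24 (adjusted p = 0.936). Rbm39 (0.70 ± 0.26) was the splicing factor of lowest p among 37. Medians of the mitochondrial ribosomal, proteasome, heat shock, oxidative stress, lysosome, p53 target and growth factor receptor lists lay between -0.06 and 0.01.

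**Figure D4:**
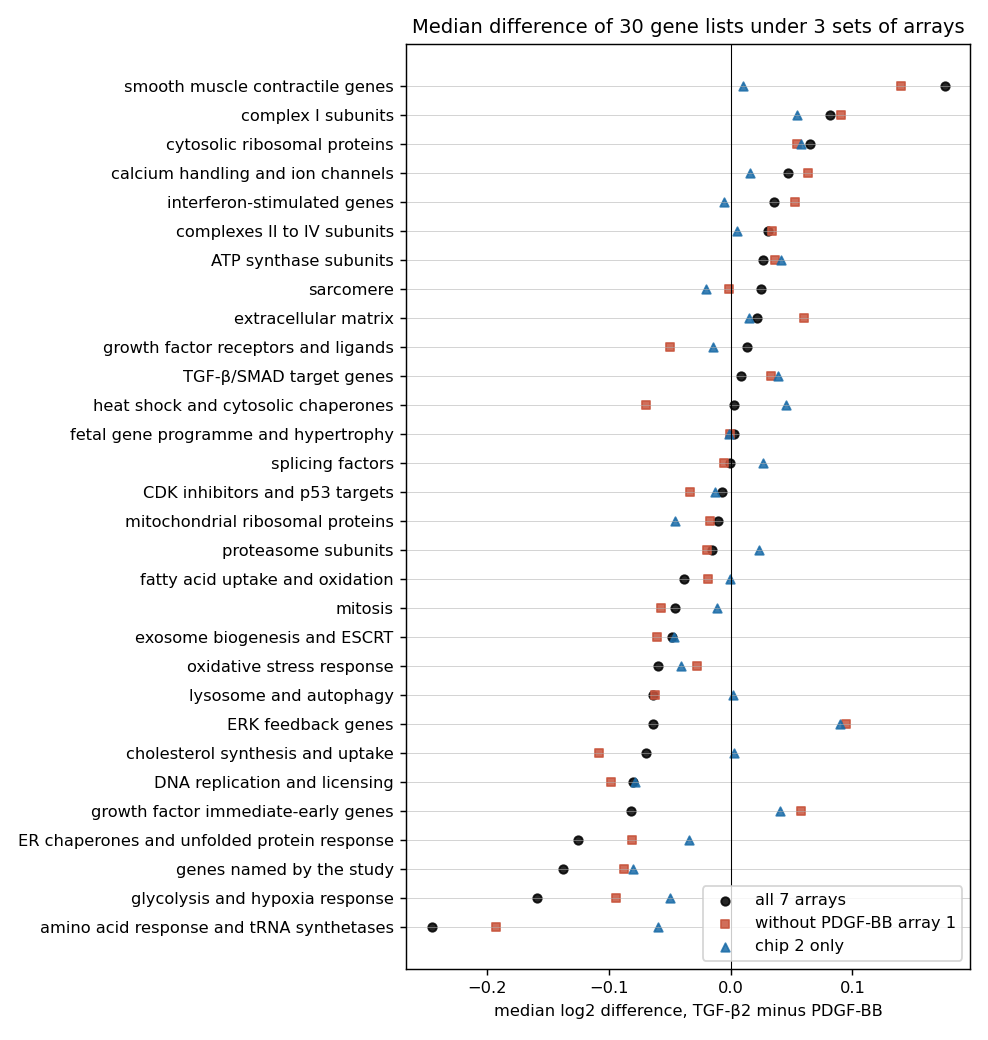
Median log2 difference (TGF-β2 minus PDGF-BB, x axis) of the tested genes of 30 lists over all 7 arrays (circles), without PDGF-BB array 1 (squares) and on chip 2 only (triangles). The amino acid response list moves from -0.25 to -0.06 on chip 2, and the immediate-early and ERK feedback lists change side. The DNA replication list lies between -0.10 and -0.08 in these sets, which share arrays. On chip 1, which is not drawn, its median was -0.002.

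The chips held separate samples, so each chip gave its own difference between the growth factors, from 2 TGF-β2 and 1 PDGF-BB array on chip 1 and from 2 arrays of each on chip 2. Over the 12240 transcripts the differences of the chips correlated with Pearson's r = 0.381 and Spearman's rho = 0.305, as a description across transcripts, which are not independent replicates and were normalized together. Of 337 transcripts at least 1 higher with TGF-β2 on chip 1, 276 (81.9%) also lay above 0 on chip 2, where 45.6% of all transcripts did. Their median on chip 2 was 0.42, and 6 of them reached 1 there.

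In the direction of PDGF-BB the repeat was smaller. Of 86 transcripts at least 1 lower with TGF-β2 on chip 1, 54 (62.8%) lay below 0 on chip 2, where 54.4% of all transcripts did, and their median there was -0.08. Read the other way, 307 of 354 transcripts (86.7%) at least 0.5 higher on chip 2 lay above 0 on chip 1, against 47.3% of all, and 99 of 167 (59.3%) at least 0.5 lower lay below 0, against 52.7% of all. Vgll4 differed by 1.91 on chip 1 and 0.98 on chip 2, and Inhba by 1.31 and 0.82.

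**Figure D5:**
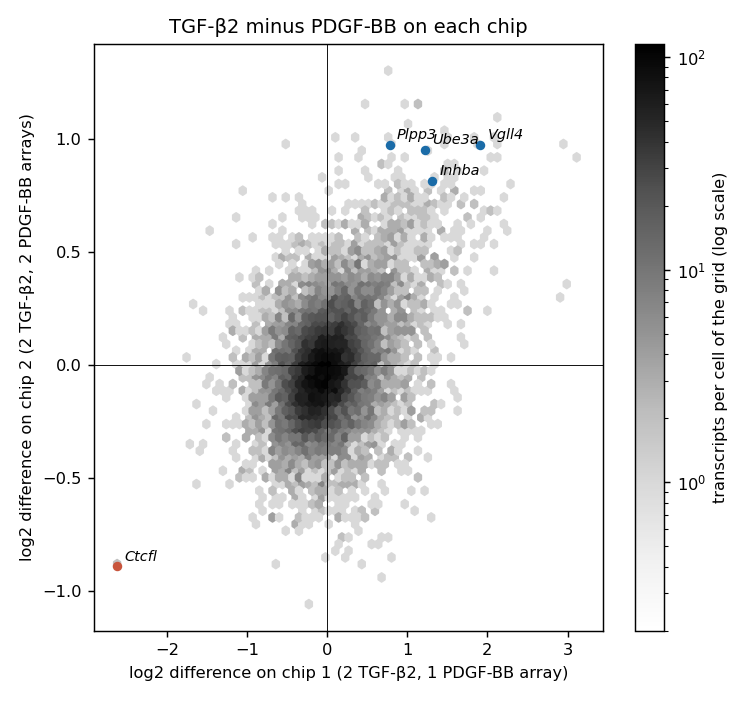
Log2 difference (TGF-β2 minus PDGF-BB) on chip 1 (x axis) against that on chip 2 (y axis), with the number of transcripts in grey and named transcripts coloured. Of the 337 transcripts at least 1 higher on chip 1, 276 lie above 0 on chip 2, and few transcripts lie far to the lower left, Ctcfl among them.

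The transcripts at an unadjusted p below 0.05 are described here by gene length, which the test did not use. Those higher with TGF-β2 came from genes with a median genomic length of 37.1 kb, against 22.2 kb for all tested transcripts and 17.2 kb for those lower with TGF-β2 (437 of 468, 11508 of 12240 and 114 of 126 had a length). PDGF-BB array 1, one of the arrays that chose these transcripts, gave the lowest of the 7 values for 327 of the 468 and the highest for 88 of the 126. On that array the median deviation was -0.04 for the genes of the top quartile of length and 0.09 for those of the bottom quartile, and on the other 6 arrays these ranged from -0.04 to 0.06 and from -0.07 to 0.05. Without it, 264 of the 468 and 45 of the 126 kept an unadjusted p below 0.05. Of the transcripts named above, Rbm39, the second probe of Dag1, Casq2, Chaf1b, Hcn2, Fgf21 and Cxcl10 did not, although they moved by less than 1.5 times, and neither did Nfatc3, Fkbp1b and the other probes of Mef2c with overlap. The part of gene length and of this array in these counts was not tested further.

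Control arrays, normalized together with the treated ones, lay between the growth factors for most of these transcripts. The control mean was between the 2 treated means for 430 of the 468 transcripts higher with TGF-β2 and for 100 of the 126 lower with TGF-β2. Over the 468, TGF-β2-treated cells lay 0.24 above and PDGF-BB-treated cells -0.43 from the control mean in the median. Over the 126, the corresponding medians were -0.22 and 0.34. These are descriptions with no test, since the transcripts were chosen by the difference between the treated groups.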

How the data were processed

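Total RNA of HL-1 cells was labelled with the Illumina TotalPrep kit and hybridized to MouseRef-8 bead arrays. The authors deposited a non-normalized bead intensity (mean signal) and a detection p-value per probe and array, which were the values analysed. They also deposited normalized intensity values of the same arrays, which the methods trace to a cubic spline in Beadstudio and the submitters' processing notes to GenomeStudio, and these served as an alternative only. The deposited bead numbers and bead errors were not used for the tests.

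Intensities were background-corrected with the detection p-values, quantile-normalized over the 7 arrays and turned into log2 values with limma 3.58.1 (neqc, offset 16) in R 4.3.3. Probes with a detection p below 0.05 on at least 3 of 7 arrays were fitted with lmFit and eBayes on 4 TGF-β2 and 3 PDGF-BB arrays without covariates, with Benjamini-Hochberg adjustment over all 12240 tested probes. The chip came from the labels. Gene symbols of 23978 of 25697 probes came from the platform annotation, updated through Entrez identifiers. A list was described by 1 probe per gene, that of highest mean signal.

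Genes named were the tested probes with an adjusted p below 0.05 (none), the 10 widest differences per direction without overlap and detected on every array of the higher group, the 5 lowest p per direction, the 2 lowest p of each list, the genes the study names with the ligand receptors, and Orc2. Genes outside this rule, such as Casq2 and Dag1, and further probes of named genes were named after their values had been seen. The members, lists and rules were chosen with earlier results of these data known. "At least" folds set the mean of the brighter group against the higher, per array, of the lowest detected signal and the probe's own signal. Promoters were RefSeq windows of GRCm38.p6. The number of arrays limits the precision. The code of the fit was run on simulated data as a check of the code only, and no result here rests on it. Alternatives were the background correction, normalization, offset, filters, chip, position or replicate number as a block, each chip alone, array weights, a robust trend, 11 arrays normalized together, and leaving out each array.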

Additional observations from a re-analysis of the deposited data

Results flagged for a closer look

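In the TGF-β2 group, the single group of 4, 6 results had 1 array far from the other 3 by Dixon's test at the 95% level. Of the 141 values tested, about 7 would be flagged by chance, since the test flags about 1 in 20. TGF-β2 array 2 stood low for Zfp326 (7.63, others 8.14 to 8.18) and Rrm2 (10.18, others 10.84 to 10.92). TGF-β2 array 4 stood high for Skp2 (8.37, others 8.16 to 8.19). TGF-β2 array 3 stood low for 1 probe of Acta2 (14.60, others 14.89 to 14.94). The same array stood high for the median level of the ERK feedback genes (0.192, others -0.05 to -0.04) and of the ER chaperones (0.095, others -0.12 to -0.09), relative to each gene's mean over the 7 arrays.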

How the results depend on the processing

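No transcript passed the adjusted test under any alternative except chip 1 alone, where 251 did (215 higher and 36 lower with TGF-β2). That fit had 1 PDGF-BB array, which was assumed to vary like the TGF-β2 arrays. Leaving out each array gave 0 to 0 such transcripts, 462 to 819 at an unadjusted p below 0.05 (594 with all 7 arrays) and 18 to 117 with a log2 difference of at least 1 (58 with all 7). The count of 18, 10 higher and 8 lower, was without PDGF-BB array 1, and those of 117 and 98 were without PDGF-BB arrays 2 and 3. The unadjusted count was 1066 with no filter on low signals, 915 with chip as a block, 1164 on chip 1, 382 on chip 2 and 1365 with array weights (754 higher and 611 lower). The count of wide differences was 9 with normexp background correction, 96 with the authors' normalized values, 18 with an offset of 50, 34 with detection on all 7 arrays, 423 on chip 1, 12 on chip 2 and 36 with array weights (20 higher and 16 lower). Fewer probes or fewer arrays entered the filtered and single-chip fits. A larger offset shrinks differences by construction, and the normexp alternative also used an offset of 50. The cause was not tested for the rest. All 59 named transcripts with an unadjusted p below 0.05 kept their sign under every alternative in which they were tested. They were chosen on the same arrays that the alternatives reuse, so this is no separate support. On chip 2 alone, all 468 and all 126 transcripts at that threshold also kept their side. Of 2534 values of 117 named transcripts over the alternatives, 2429 moved by less than the spread between replicates, 74 moved by more and 31, all on chip 1 alone, passed the adjusted test. Whether replicate numbers paired the samples could not be decided. Deviations from the group means correlated at 0.19, -0.34 and 0.34 for numbers 1, 2 and 3. For samples of unlike number these correlations ranged from -0.50 to 0.48, and the samples of number 2 lay on different chips. With the replicate number as a block the counts were 0, 664 and 71. Low signals limited the comparison, since probes near the detection limit of about 5.6 to 5.9 on the log2 scale had only a bound in 1 group.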
